A study of Homo sapiens with 10 samples.

Results

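The promoters described here gained an Rb peak under INX-315 in Kuramochi cells and did not reach the same call in OVCAR3 cells. They were chosen by the presence or absence of peaks: a protein-coding gene was a member when a peak overlapped its promoter in both Kuramochi INX-315 libraries, in none of the 4 DMSO libraries and in at most 1 of the 2 OVCAR3 INX-315 libraries. A promoter ran from 2000 bp before to 500 bp after any transcript start of the gene in GENCODE release 44 (hg38), and an overlap of 1 bp was enough. The rule found 571 members among 19970 protein-coding genes on chromosomes 1 to 22 and X. Of all these genes, 10299 had no promoter peak in any DMSO library, and the members were 5.54% of those.

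Rb binding was profiled by CUT&RUN, in which an antibody directs a nuclease to cut out the DNA around its target in permeabilised cells. The cells were OVCAR3 and Kuramochi, established human lines of high-grade serous ovarian cancer, both labelled wild type (WT). Each line had 2 Rb libraries from cells given DMSO and 2 from cells given INX-315 at 300 nM, a CDK2 inhibitor, for 2 days, and 1 IgG2a library from cells given DMSO served as its control. The Rb lists held 5221 to 17281 peaks at a mean depth of 0.216 to 0.501 fragments per base, and the shallowest was Kuramochi INX-315 replicate 2. The replicates were separate cultures of 1 experiment, so differences between the lines rest on 2 libraries per arm. A peak list cannot tell fewer cells with bound Rb from less Rb bound per cell.

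Rb is the product of the retinoblastoma gene and restrains division by binding E2F transcription factors at the promoters of genes needed for DNA replication and cell division. Cyclin-dependent kinases, CDK2 among them, phosphorylate Rb and release it from E2F, so that inhibition of these kinases keeps Rb in its binding form. Rb has no DNA sequence preference of its own and reaches chromatin through partner proteins, of which the E2F family is the best known.

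The name given to this class, gain in Kuramochi only, held in its strict sense for a minority of the members. A promoter peak was missing from both OVCAR3 INX-315 libraries in 160 of 571 members (28%, 95% Wilson interval 24.5 to 31.8). The other 411 (72.0%, 68.2 to 75.5) had a peak in 1 OVCAR3 INX-315 library, which was replicate 2 for 399 genes and replicate 1 for 12, among them WIZ, SEMA3C and IL15RA. Replicate 2 was the deeper of these libraries, with 0.421 fragments per base against 0.307, and the longer list, with 17281 peaks against 13031. The part of this difference in the membership was not tested. Without OVCAR3 INX-315 replicate 1, and so with none allowed in replicate 2, 172 genes met the rule, and without Kuramochi INX-315 replicate 2 there were 1149. With all 8 Rb lists cut to the same length of 5221 peaks, the rule found 145 genes, of which 10 were among the 571, and 104 of the 145 (71.7%) had no OVCAR3 INX-315 peak, so the minority became a majority. The members are therefore called here promoters gained in Kuramochi but not in both OVCAR3 libraries, and the 160 are described separately where they differed. No member had a promoter peak in either IgG2a library, but these lists held only 25 (OVCAR3) and 12 (Kuramochi) peaks on chromosomes 1 to 22 and X. Absence from lists this short says little about the members.

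Sequences reaching 100 bases to either side of the summit of the peak in Kuramochi INX-315 replicate 1 are shown for 5 of the highest-ranked members that held an E2F string there. The strings sought, on both strands, were TTTCCCGC, TTTGGCGC, TTTCGCGC and TTTGCCGC, the forms of the E2F consensus, and the string found is in capitals. All sequences are the plus strand of hg38, 5′ to 3′. CCDC27 encodes a coiled-coil protein, ADAMTS2 the protease that trims procollagen, and ADAL an adenosine deaminase-like enzyme. ZNF665 encodes a zinc finger protein and SPRYD7 a SPRY domain protein. ADAL shares its peak with LCMT2 on the other strand. The CCDC27 summit lies 819 bp after the nearest start of the gene. There the peak reached peaks that 2 DMSO libraries held outside the promoter window, as described below.
CCDC27, chr1:3747179-3747379: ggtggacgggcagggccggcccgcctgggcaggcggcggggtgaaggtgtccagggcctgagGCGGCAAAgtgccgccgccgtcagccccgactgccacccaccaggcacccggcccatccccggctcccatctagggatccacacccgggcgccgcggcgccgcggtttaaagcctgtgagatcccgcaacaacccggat
ADAMTS2, chr5:179345317-179345517: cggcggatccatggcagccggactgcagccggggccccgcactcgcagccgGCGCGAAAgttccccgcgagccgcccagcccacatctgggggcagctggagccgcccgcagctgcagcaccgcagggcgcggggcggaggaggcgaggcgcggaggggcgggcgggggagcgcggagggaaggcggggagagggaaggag
ADAL, chr15:43330372-43330572: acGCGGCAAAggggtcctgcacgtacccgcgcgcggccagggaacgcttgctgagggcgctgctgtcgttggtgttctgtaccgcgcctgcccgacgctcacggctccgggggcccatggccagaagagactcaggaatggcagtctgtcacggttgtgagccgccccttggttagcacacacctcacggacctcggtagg
ZNF665, chr19:53193167-53193367: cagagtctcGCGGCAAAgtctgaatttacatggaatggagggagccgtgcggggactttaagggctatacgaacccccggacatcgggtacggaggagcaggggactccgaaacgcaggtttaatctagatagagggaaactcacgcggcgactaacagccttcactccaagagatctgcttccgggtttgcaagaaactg
SPRYD7, chr13:49936530-49936730: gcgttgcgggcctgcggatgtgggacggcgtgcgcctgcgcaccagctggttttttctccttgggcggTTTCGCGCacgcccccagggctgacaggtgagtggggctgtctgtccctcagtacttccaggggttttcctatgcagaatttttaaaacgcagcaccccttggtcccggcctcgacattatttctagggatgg

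The same windows are shown for 2 high-ranked peaks that a pair of members shared, because such promoters counted as 2 genes for 1 peak. DDB1 encodes the adaptor of CUL4 ubiquitin ligases and lies head to head with TKFC, which encodes triokinase. ALG11, a mannosyltransferase of N-glycan assembly, lies head to head with ATP7B, the copper transporter mutated in Wilson disease. Neither held an E2F string, and both were rich in CpG, with 28 and 18 CpG in the window, respectively.
DDB1 and TKFC, chr11:61333191-61333391: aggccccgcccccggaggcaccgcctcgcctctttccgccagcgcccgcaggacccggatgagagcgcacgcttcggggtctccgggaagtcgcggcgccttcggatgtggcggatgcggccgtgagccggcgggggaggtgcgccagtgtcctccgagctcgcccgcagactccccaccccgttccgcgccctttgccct
ALG11 and ATP7B, chr13:52012022-52012222: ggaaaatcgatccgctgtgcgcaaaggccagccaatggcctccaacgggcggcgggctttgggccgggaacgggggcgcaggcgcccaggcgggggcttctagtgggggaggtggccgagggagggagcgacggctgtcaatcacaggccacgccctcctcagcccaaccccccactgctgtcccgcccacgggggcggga

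Rb peaks at the members were weak. Their values chose them through the caller's threshold, both by the calls required and by the calls not allowed, and are given as a description. The classes and groups set beside them here and below were made from the same calls. Differences in strength between them are therefore not independent of the rule. The fold enrichment is the fragments at the summit over the local IgG2a background, with 1 added to both by the caller. At mean depths of 0.216 to 0.501 fragments per base the added 1 weighs heavily, so the value also follows count and depth. Values from libraries of unlike depth are thus not on the same scale. The fold enrichment had a median of 6.14 in Kuramochi INX-315 replicate 1 (quartiles 4.98 and 7.89) and of 5.52 in replicate 2 (4.43 and 6.58). A median of 9 fragments lay at the summit in replicate 1 and of 6 in replicate 2. Promoters with a peak in all 8 Rb libraries, by contrast, had median fold enrichments of 24.2 and 19.1, and the 1110 genes gained in both lines had 7.31 and 6.17. Within the lists, where 0 is the weakest and 100 the strongest peak by p-value, the members had median percentile ranks of 31.8 and 26.5. In replicate 1, 81.6% of members ranked below the middle of the list and 2 were in its top 10%, and in replicate 2 these were 89.7% and 1.

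**Figure D1:**
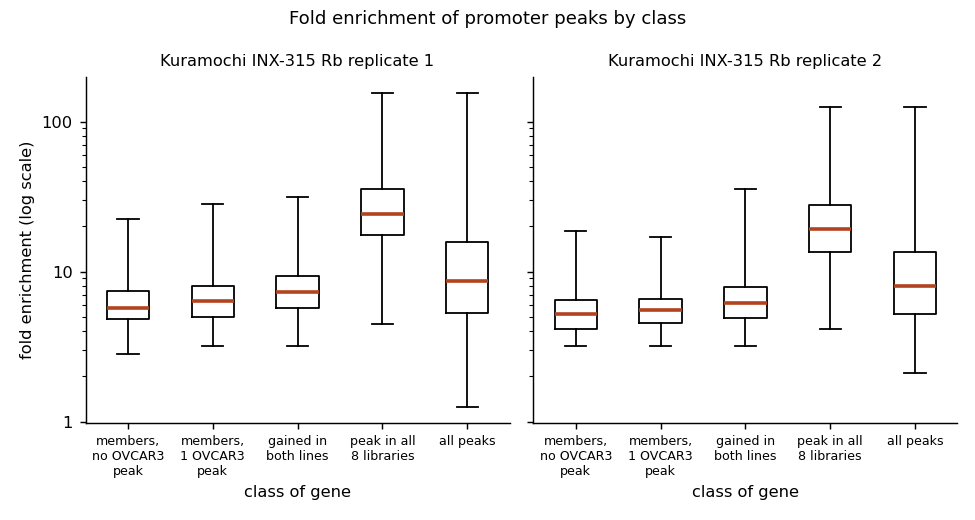
Fold enrichment (log scale) of the strongest promoter peak per gene in the 2 Kuramochi INX-315 libraries for members with no OVCAR3 INX-315 peak, members with 1, genes gained in both lines, genes with a peak in all 8 Rb libraries, and all peaks of the list. Boxes span the quartiles, the line is the median and whiskers reach the lowest and highest value; both member groups sit low, with medians of 5.69 and 6.41 in replicate 1.

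The 160 members without an OVCAR3 peak were slightly weaker than the rest. Their median fold enrichment was 5.69 in replicate 1 and 5.20 in replicate 2, against 6.41 and 5.54 in the 411 with 1 OVCAR3 peak, and the quartile ranges overlapped. In OVCAR3 INX-315 replicate 2 the 399 members with a peak had a median fold enrichment of 6.69, with 11 fragments at the summit and a percentile rank of 31.1. In OVCAR3 replicate 1 the 12 members with a peak had a median fold enrichment of 4.56 and a rank of 10.2. The members called in OVCAR3 replicate 2 thus mostly ranked below the middle of that list too, and those called in replicate 1 were near its floor.

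**Figure D2:**
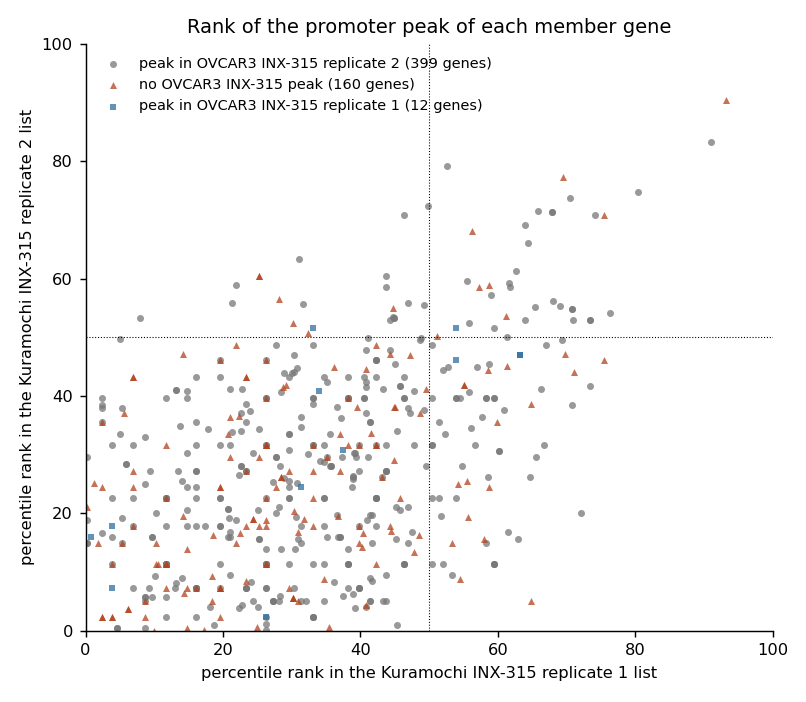
Percentile rank of the strongest promoter peak of each of 571 members in the Kuramochi INX-315 replicate 1 list (x axis) and replicate 2 list (y axis), by OVCAR3 INX-315 status; dotted lines mark the middle of each list. Most points lie at the lower left, and members with and without an OVCAR3 peak are spread over the same area.

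Among genes without a DMSO peak, 16.3% had a peak in both Kuramochi INX-315 libraries and 19.4% in both OVCAR3 INX-315 libraries. A peak in OVCAR3 INX-315 replicate 1 was present in 20.2% of these genes, and one in replicate 2 in 33.8%. The rule used these calls, so nothing is read from the members' counts beside them. The mirror class, gained in both OVCAR3 libraries but not in both Kuramochi libraries, held 884 genes, of which 490 (55.4%, 52.1 to 58.7) had a peak in 1 Kuramochi library. Of those, 384 had it in replicate 1 and 106 in replicate 2, the shallower library.

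At the edge of the rule, ZSWIM1, CUL5 and SLC25A4 were just inside. Their weaker Kuramochi peak had a −log10 q of 1.31 in each, and the caller's limit was a q of 0.05. Just outside stood LIME1, a transmembrane adaptor of lymphocyte signalling, with a peak in Kuramochi INX-315 replicate 2 alone at a fold enrichment of 26.8, shared with ENSG00000273047, and ENSG00000271698 with one of 17.2. In all, 786 genes missed the rule by 1 Kuramochi library, 578 of them with a peak in replicate 1 and 208 in replicate 2. On the OVCAR3 side, ENSG00000290184, ZBTB2 and CCDC27 were inside with fold enrichments of 28.1, 23.2 and 18.2 in OVCAR3 INX-315 replicate 2. ENSG00000266202, LYRM9 and PKNOX2 were outside because of an OVCAR3 replicate 1 peak with a fold enrichment of 3.38 in each.

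The strongest members included several that had a DMSO peak beside the promoter. For 7 members (1.23%) the Kuramochi INX-315 peak reached a peak that a DMSO library of either line held outside the promoter window, and 4 of these were among the first 10 members by rank. FOXH1, the SMAD partner of nodal signalling and the highest-ranked member, had fold enrichments of 22.6 and 18.8 in the Kuramochi INX-315 libraries and no OVCAR3 INX-315 promoter peak. Its summit lay 2339 bp before the FOXH1 start and 90 bp from that of PPP1R16A, and 3 DMSO libraries held a peak at this place with fold enrichments of 5.57 to 10.1, the nearest ending 90 bp outside the FOXH1 promoter. FOXH1 is thus a member through a peak at the start of a neighbouring gene that DMSO libraries held as well. ZBTB2, a zinc finger transcription factor, had its summit 802 bp inside the gene and DMSO peaks in 3 libraries at fold enrichments of 5.33 to 5.8. ENSG00000284341, ENSG00000290184, ZNF423, CCDC27 and SERTAD4 were the other 5. Only FOXH1 of the 7 was among the 160 members without an OVCAR3 peak.

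Position was checked for all members. The summit lay a median of 105 bp from the nearest start of the gene in replicate 1 and 114 bp in replicate 2, and within 250 bp in 81.1% (77.7 to 84.1) and 76.5% (72.9 to 79.8). In genes gained in both lines these medians were 93.0 and 105 bp. In replicate 1, 172 summits were outside the gene, 199 in a non-coding exon, 71 in a coding exon and 129 in an intron. The summits of the 2 Kuramochi libraries were a median of 95 bp apart and at most 200 bp apart in 70.2% of members, while 55 members had peaks in the 2 libraries that did not overlap each other. For 61 members (10.7%) the start of another protein-coding gene was nearer to the summit than their own.

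ZNF354C, a zinc finger repressor, and SNX32, a sorting nexin of endosomal traffic, were the highest-ranked members called in Kuramochi alone apart from FOXH1. ZNF354C at chr5:179060262-179060982 had fold enrichments of 13.4 and 14.3 with 24 and 20 fragments. SNX32 at chr11:65833403-65834198 had 17.1 and 12.3 with 23 and 14 fragments. Neither had a promoter peak in an OVCAR3 INX-315 library or, by the rule, in a DMSO Rb library. Other members of this kind by rank were ZNF112 with 10.1 and 11.6 and OLFM1, a secreted glycoprotein on the oestrogen response list, with 10.7 and 9.54.

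Most of the first 20 members had a peak in OVCAR3 INX-315 replicate 2. DDB1 and TKFC had fold enrichments of 13.7 and 12.5 in the Kuramochi INX-315 libraries and 10.8 in OVCAR3 INX-315 replicate 2. CDADC1, a cytidine deaminase-like gene, had 17.3 and 8.67 against 14.8 in that OVCAR3 library, and ALG11 and ATP7B had 14.8 and 8.74 against 12. In CDADC1, ALG11 and ATP7B the 2 Kuramochi replicates differed more from each other than either did from the OVCAR3 value. ZFAND2A had 11.4 and 11.7 against 10.6, so its 3 values lay close together. LMF1, a lipase maturation factor, had 9.61 and 15.4 against 5.43. FAM20C, the Golgi kinase of secreted proteins, had 12.6 and 11.1 against 6.69, and BLVRB, a biliverdin reductase, had 11.3 and 8.51 against 4.93. In LMF1, FAM20C and BLVRB both Kuramochi values were above that of OVCAR3. The libraries differed in depth, and none of these values was adjusted for it.

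Some members shared a promoter peak with another member, and the share of such genes was not taken for other classes. Merging the members' peaks of both Kuramochi libraries gave 575 regions, of which 50 belonged to 2 or more members. They held 99 members (17.3%), and in 35 of them the genes lay on both strands. Besides the pairs shown above they included EVC with EVC2, a head-to-head pair that acts in Hedgehog signalling at the cilium, LURAP1 with POMGNT1, ANLN with MATCAP2, and GTF2E1 with RABL3. A pair of this kind counted as 2 genes but rests on 1 peak.

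Cell cycle genes, the best known targets of Rb, were nearly missing among the members, since most had a DMSO peak and the rule left them out. All 68 genes of a list of E2F cell cycle and DNA replication genes had a promoter peak in at least 1 DMSO library, and 59 had one in all 8 Rb libraries, so none could be a member. Of 74 mitotic genes, 11 had no DMSO peak and 2 of these were members (18.2%, beside 5.54% of all genes without one). They were ANLN, which encodes the cytokinesis scaffold anillin, with fold enrichments of 10.7 and 5.93, and BUB1B, a kinase of the spindle checkpoint, with 7.12 and 6.58. In OVCAR3 INX-315 replicate 2 ANLN had 3.31 and BUB1B 6.69. Of the same 11 genes, 4 (36.4%) were gained in OVCAR3 but not in both Kuramochi libraries and 3 (27.3%) in both lines. These shares were 8.58% and 10.8% of all genes without a DMSO peak. Of 102 DNA repair genes, 14 had no DMSO peak and DDB1 alone was a member. Of 26 genes of the Rb family, E2F partners and the MuvB complex, 6 had no DMSO peak, 0 were members and 4 were gained in both lines.

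Signalling genes supplied 7 members from a list of 101 genes of the Wnt, Hedgehog, Notch and TGF-beta pathways. These were 25.9% of the 27 listed genes without a DMSO peak, against 5.54% of all genes without one. Among genes without a DMSO peak that had a CpG-rich start, as defined below, members were 10.8%. The listed genes were not split by this trait, and no interval was taken for so few. Hedgehog signalling was represented by the ligand SHH, with fold enrichments of 6.96 and 6.50 in the Kuramochi libraries, and the transducer SMO, with 8.22 and 4.56. HES5, a Notch target that represses neural differentiation, had 11.9 and 4.71. APC, the scaffold of beta-catenin destruction, had 7.31 and 3.94, and the ligand WNT5B had 5.06 and 4.09. All 5 of these had a peak in OVCAR3 INX-315 replicate 2, where APC reached 16.2 and WNT5B 5.10, above both their Kuramochi values. SHH, SMO and HES5 had 4.76, 6.22 and 5.83 there. FOXH1 was also on this list and entered through the peak at PPP1R16A. Of the same 27 genes, 2 were gained in both lines (7.41%, against 10.8% of all genes without a DMSO peak) and 3 in OVCAR3 but not in both Kuramochi libraries.

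Interferon and antigen presentation genes gave 5 members of 28 without a DMSO peak (17.9%), beside 5.54% of all genes without one. Of the 28, 0 were gained in both lines, beside 10.8% of all such genes. In OVCAR3 but not in both Kuramochi libraries 3 were gained (10.7%, beside 8.58%). No intervals were taken for these small lists. CGAS, the cytosolic DNA sensor, had fold enrichments of 7.31 and 5.76 and no OVCAR3 peak. IFI6 had 5.47 and 7.88 and OAS3, an antiviral synthetase, 6.41 and 3.29. The class I genes HLA-C and HLA-B had 4.65 and 3.94 and 4.17 and 3.82, respectively, and their near-identical sequences leave the assignment of fragments between them uncertain. These 5 peaks were weak, with at most 10 fragments at a summit, and CGAS and OAS3 held an E2F string within 100 bp of it. All but CGAS had a peak in OVCAR3 INX-315 replicate 2. There IFI6 had 7.72, OAS3 5.39, HLA-C 5.15 and HLA-B 6.27, above both Kuramochi values in HLA-C and HLA-B.

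Apoptosis genes gave 3 members of 13 without a DMSO peak (23.1%, beside 5.54% of all genes without one). The class gained in OVCAR3 but not in both Kuramochi libraries held 3 of the same 13. BAK1 and BAX, which permeabilise mitochondria in cell death, had fold enrichments of 6.02 and 7.12 and of 6.64 and 5.76, both with a peak in OVCAR3 INX-315 replicate 2. There BAK1 had 4.97 and BAX 8.28, the latter above both its Kuramochi values. BIRC3, an inhibitor of apoptosis, had 6.64 and 4.04 and no OVCAR3 peak. From the list of epithelial-mesenchymal transition and matrix genes, 3 of 25 were members: COL5A1 (8.45 and 6.87, no OVCAR3 peak), COL6A2 (5.98 and 7.09) and ZEB1, a repressor of epithelial genes (8.64 and 6.64). COL6A2 and ZEB1 had 9.28 and 9.15 in OVCAR3 INX-315 replicate 2, above both their Kuramochi values. Chromatin genes gave 3 of 24, namely HDAC10 (13.3 and 7.88), the Polycomb subunit CBX7 (6.06 and 7.15) and the acetyltransferase CREBBP (5.31 and 5.52), all with an OVCAR3 replicate 2 peak. There they had 10.2, 7.39 and 7.04, above both Kuramochi values in CBX7 and CREBBP. Autophagy and lysosome genes gave 3 of 16, among them CLN3 (5.98 and 4.93) and BECN1, which initiates autophagy (4.98 and 5.20, no OVCAR3 peak). The OVCAR3 class held 3 genes of the matrix list, 3 of the chromatin list and 4 of the autophagy list. Among all genes without a DMSO peak, members were 5.54% and that class 8.58%. Equal counts therefore stand beside unlike shares over all such genes. No intervals were taken for these small lists.

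Other lists gave few members each, and their shares stand beside 5.54% of all genes without a DMSO peak. Among 21 oestrogen response genes without a DMSO peak OLFM1 alone was a member, and among 14 genes of cholesterol and fatty acid synthesis the elongase ELOVL3 alone (7.97 and 5.52). None of 15 genes of serous ovarian and Müllerian epithelium was a member. Of solute carriers, 5 of 217 were members (2.3%, beside 5.54% of all genes without a DMSO peak), and of olfactory receptors, keratins, clustered protocadherins and kinesins 0 of 415, 51, 50 and 12. Mitochondrial ribosomal proteins gave 5 of 27 (18.5%), led by MRPS22, MRPL45 and MRPS15, and cytosolic ribosomal proteins 5 of 48 (10.4%), led by RPL31 (6.96 and 6.98), RPS15A (4.97 and 9.54) and RPS14 (6.62 and 6.09). RPL31, RPS15A and RPS14 had 8.29, 9.52 and 9.50 in OVCAR3 INX-315 replicate 2. Potassium channel genes made up all 5 members of 105 channel genes, the highest-ranked being KCNJ10, KCNH6 and KCNQ1. HOX genes gave 3 of 21 (14.3%; HOXB2, HOXD9 and HOXC9), ubiquitin ligase and protease names 8 of 154, TMEM names 9 of 120, respiratory chain names 3 of 45 and histone genes 2 of 40, while proteasome subunits gave 2 of 13 (15.4%) and ciliary names 2 of 46. RAB names, FOX and SOX factors gave 1 each (RAB3IL1, FOXH1 and SOX8), and aminoacyl-tRNA synthetases 0 of 12.

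Zinc finger genes were the largest named group. Genes with C2H2 zinc finger names, most of which encode DNA-binding repressors, supplied 45 members, led by ZBTB2, ZNF354C and ZNF112. They were 16.5% of 273 such genes without a DMSO peak, while 54 (19.8%) were gained in both lines and 28 were gained in OVCAR3 but not in both Kuramochi libraries. On chromosome 19, where many of these genes lie in clusters, 27 of 133 were members (20.3%, 14.3 to 27.9), and on other chromosomes 18 of 140 (12.9%, 8.29 to 19.4). Other genes of chromosome 19 had 38 of 615 (6.18%, 4.53 to 8.37). Of the 45, 17 had no OVCAR3 peak. Members were 10.8% of genes without a DMSO peak that had a CpG-rich start, as defined below, and 1.40% of the rest, so the shares were also taken among the former. There, 38 of 190 zinc finger genes with a CpG-rich start were members (interval 14.9 to 26.3%) against 452 of 4328 other genes (10.4%, 9.57 to 11.4). Split by chromosome, zinc finger genes with a CpG-rich start had 24.7% on chromosome 19 (17.1 to 34.4) and 15.5% elsewhere (9.60 to 24.0), and the other genes of chromosome 19 with such a start had 15.4% (11.3 to 20.7), so that the intervals within chromosome 19 overlapped. Genes of a cluster are related in sequence and are not independent of each other.

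Base composition of the members was that of CpG island promoters. In the 300 bases around the canonical start (250 before and 50 after), the members held a median of 29 CpG, against 23 over all genes, 12 over genes without a DMSO peak and 28 over genes gained in both lines. A CpG-rich window, with over 50% G and C and an observed-to-expected CpG ratio over 0.6, was found in 85.8% of members (82.7 to 88.4), 43.9% of genes without a DMSO peak (42.9 to 44.8) and 87.7% of genes gained in both lines (85.7 to 89.5). The members' interval overlapped that of genes gained in both lines and lay above that of all genes without a DMSO peak.

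E2F strings were found at the summits of few members. A window of 200 bp around the summit held one for 25 of 523 distinct summits (4.78%, 3.26 to 6.96) in replicate 1 and for 18 of 522 (3.45%, 2.19 to 5.38) in replicate 2. For genes gained in both lines the share was 2.84% (1.97 to 4.07) and for genes with a peak in all 8 libraries 5.79% (5.01 to 6.67), and both overlapped the members' interval. For genes gained in OVCAR3 but not in both Kuramochi libraries, at their OVCAR3 summits, it was 1.93% (1.19 to 3.11), an interval below that of the members at replicate 1 and overlapping that at replicate 2. Leaving out a library changes the set of genes. The 172 genes that met the rule without OVCAR3 INX-315 replicate 1 include the 160 described below, and their share was 10.2%. For the 1149 genes that met it without Kuramochi INX-315 replicate 2 the share with an E2F string was 3.20%. In the 300 bases around the canonical start, 5.25% of members (3.70 to 7.4) held one, against 4.37% of all genes. The share was 2.38% (2.10 to 2.69) in genes without a DMSO peak and 9.30% (8.42 to 10.3) in genes with a peak in all 8 libraries. The members' interval lay above the former and below the latter. It overlapped that of genes gained in both lines, 3.69% (2.73 to 4.97). It also overlapped that of genes gained in OVCAR3 but not in both Kuramochi libraries, 2.49% (1.65 to 3.74). Each E2F string sought holds a CpG. A CpG-rich start was found in 85.8% of members and 43.9% of genes without a DMSO peak. The shares with a string were not split by this trait, and its part in them was not tested.

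More of the 160 members without an OVCAR3 peak had such a string at the summit, by count. Their summit windows held an E2F string in 15 of 146 (10.3%, 6.33 to 16.3) in replicate 1, against 10 of 379 (2.64%, 1.44 to 4.79) for members with 1 OVCAR3 peak. At the replicate 2 summits the shares were 12 of 146 (8.22%, 4.76 to 13.8) and 6 of 378 (1.59%, 0.729 to 3.42). The intervals of the 2 groups did not overlap at the summits of either library, although around the canonical start they did, with 6.88% (3.88 to 11.9) and 4.62% (2.98 to 7.11). The difference was not tested. Among the 160, the genes with a string at the summit included ADAMTS2, ZNF665, ZNF502, KIAA1614, CGAS and the readthrough pair RPS10 and RPS10-NUDT3, and several shared a peak. The AP-1 strings TGACTCA and TGAGTCA were found in 0.382% of all members' summit windows, and the GC box GGGCGG in 64.6%, beside 64.9% in genes gained in both lines. A string is a match of letters and not a bound site.

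Members were spread unevenly over chromosomes. Of 1455 genes gained in 1 line but not in both, 39.2% were members. On chromosome 13 it was 28 of 40 (70.0%, 54.6 to 81.9), on chromosome 16 48 of 71 (67.6%, 56.1 to 77.3) and on chromosome 19 65 of 108 (60.2%, 50.8 to 68.9), while on chromosome X it was 18 of 80 (22.5%, 14.7 to 32.8), on chromosome 12 13 of 63 (20.6%, 12.5 to 32.2) and on chromosome 4 11 of 61 (18%, 10.4 to 29.5). Chromosome 13 carried 4.90% of members but 1.68% of genes without a DMSO peak, and its members included CDADC1, the ALG11 and ATP7B pair, TNFRSF19, a receptor of the tumour necrosis factor family, SPRYD7 and GTF2F2, a subunit of a general transcription factor. Neighbouring genes on a chromosome are not independent, so the intervals, which cover counting error alone, are too narrow. The level of these shares moved most with 2 libraries, while without either of them chromosomes 13, 16 and 19 stayed above the overall share and X below it. Without OVCAR3 INX-315 replicate 1 they were 7 of 35 on chromosome 13, 15.5% on chromosome 16, 16.2% on chromosome 19 and 2.01% on chromosome X, against 8.04% overall. Without Kuramochi INX-315 replicate 2 they were 82.1%, 81.9%, 82.1% and 48.9%, respectively, against 69.7%.

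**Figure D3:**
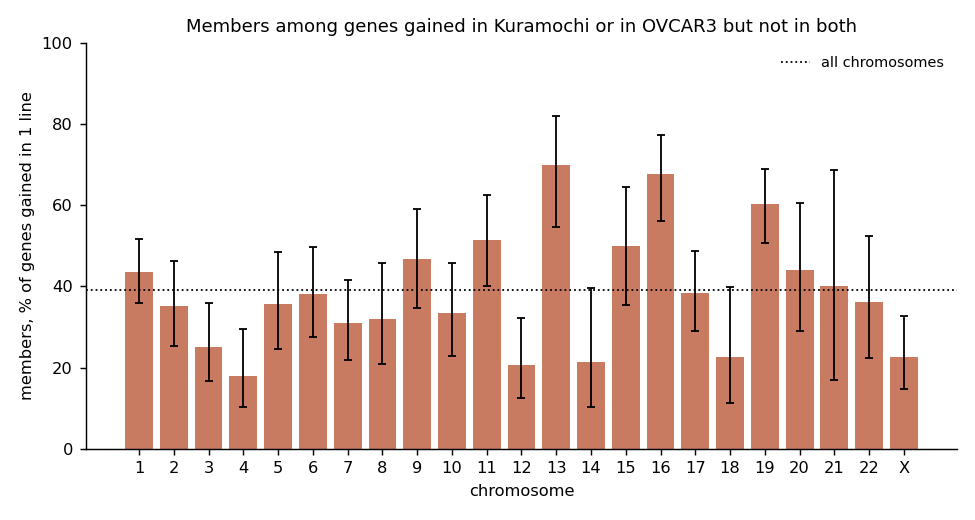
Members as a percentage of the genes gained in Kuramochi or in OVCAR3 but not in both, by chromosome, with 95% Wilson intervals as error bars; the dotted line is the share over all chromosomes, 39.2%. The intervals of chromosomes 11, 13, 16 and 19 lie wholly above the line and those of chromosomes 3, 4, 12 and X wholly below it.

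Local background differed between the lines around the members. The caller's local background comes from the IgG2a library, the control for calling. It was recovered from the fold enrichment and p-value of called peaks. These values were averaged over the peaks within 1 Mb of a start, at least 10 of them, and divided by the genome mean. The background is thus not independent of the calls that made the classes. The log2 ratio of Kuramochi to OVCAR3 had a median of 0.13 for 536 members with a value, −0.02 for genes gained in both lines and −0.15 for genes gained in OVCAR3 but not in both Kuramochi libraries. Among genes without a DMSO peak, the share of members was 3.38% (2.49 to 4.56) where the ratio was below −0.5 and 9.16% (7.63 to 11) where it was 0.5 or above. The share of genes gained in OVCAR3 but not in both Kuramochi libraries ran the other way, from 13% (11.2 to 15) to 7.35% (5.98 to 9.0). The share gained in both lines stayed between 9.77% and 12.5%. The part of this background in the membership was not tested. By chromosome, the ratio was 0.39 on chromosome 13, 0.03 on chromosome 16 and −0.28 on chromosome 19, which had high shares of members, and −0.28 on chromosome 3, −0.13 on chromosome 4, 0.10 on chromosome 12 and −0.45 on chromosome X, which had low ones.

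**Figure D4:**
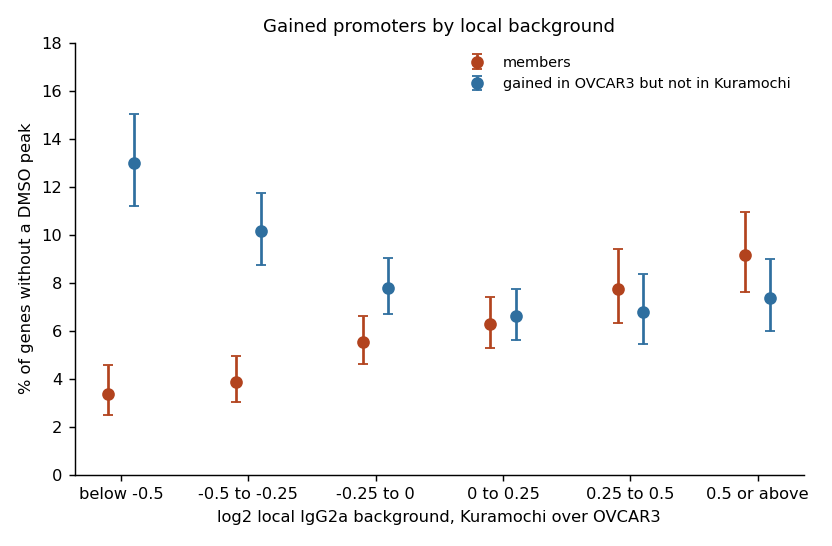
Percentage of genes without a DMSO peak that were members, or that were gained in OVCAR3 but not in both Kuramochi libraries, by the log2 ratio of local IgG2a background in Kuramochi to that in OVCAR3; points are shares and bars 95% Wilson intervals. The members' share is 3.38% in the lowest class and 9.16% in the highest, and that of the OVCAR3 class 13% and 7.35%.

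Where a library held no promoter peak for a member, its nearest peak was usually far away. For the 172 members without a peak in OVCAR3 INX-315 replicate 2 the nearest peak of that library was a median of 38.4 kb from the Kuramochi summit, and within 5 kb for 14 (8.14%). For the 559 without one in replicate 1 the median was 51.6 kb, and 37 (6.62%) had one within 5 kb. In the Kuramochi DMSO libraries the medians were 104 and 64.0 kb over all 571 members.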

How the data were processed

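Peak lists of 8 Rb and 2 IgG2a CUT&RUN libraries were used. Per the study's methods and the submitters' processing notes, the authors trimmed reads, aligned them to hg38 with Bowtie2 2.3.4.1, removed blacklisted and mitochondrial reads, kept duplicates and called peaks per library with MACS2 2.2.7.1 at a q of 0.05 against the IgG library of the line. The deposited lists give the position of each peak and of its summit, its fold enrichment (as defined above) and the −log10 of its p-value and q-value. Whole fragments at the summit, the mean depth and the local IgG background were recovered from these columns, for at least 98.6% of peaks per Rb library. The authors' differential binding test needs reads and was not run here. Columns of no other sample were used.

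Peaks were matched to GENCODE release 44 promoters (2000 bp before to 500 bp after a start, 1 bp overlap), and the strongest promoter peak stood for a gene. Groups came from the labels. Members were ranked by their mean percentile rank in the 2 Kuramochi INX-315 lists. Named genes were the 20 highest-ranked members, up to 8 members of each gene list and up to 3 of each symbol family by that rank, and the 3 genes on either side of each threshold. Other genes, named for a DMSO peak beside the promoter, an E2F string, a shared peak, their chromosome or an OVCAR3 replicate 1 peak, were chosen after their values were seen. Some items that this rule names are not reported here. The members and the gene lists were chosen with earlier results of these data known. No hypothesis test was made: shares have 95% Wilson intervals, which cover counting error only. The scripts were tested on simulated data. Alternatives were a stricter q, other promoter windows, equal list lengths, the summit inside the promoter, a stricter OVCAR3 rule and leaving out each library. Python 3.11.15, numpy 2.4.6, pandas 2.3.3, scipy 1.17.1, statsmodels 0.14.6 and matplotlib 3.10.9 were used.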

Additional observations from a re-analysis of the deposited data

How the results depend on the processing

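Of 84 alternative values over 14 settings, 66 stayed within 1.5 times the count, or within the interval or spread of the value, and 18 moved. With all lists cut to the 5221 strongest peaks the rule found 145 genes, of which 10 were among the 571, 71.7% had no OVCAR3 peak, the median percentile rank was 20.9 and 21.4% shared a peak. Allowing no OVCAR3 INX-315 peak gave 160 genes, 100% of them without one by construction, and 10.3% with an E2F string at the summit. Leaving out each library in turn gave 172 to 1149 genes, 27.1 to 100% without an OVCAR3 peak, 3.20 to 10.2% with an E2F string, a median distance to the start of 101 to 121 bp, a median rank of 22.6 to 32.1 and 15.1 to 19.4% sharing a peak. The lowest number came without OVCAR3 INX-315 replicate 1 and the highest without Kuramochi INX-315 replicate 2. By construction the first allows no peak in OVCAR3 replicate 2 and the second asks for 1 Kuramochi library. At a q of at most 0.001 the rule found 554 genes, 374 of them among the 571, and the chromosome shares, an alternative chosen after seeing the data, were 58.3% (13), 48.6% (16), 53% (19) and 13.1% (X) against 33.0% overall. No paired analysis was possible because the results come from no test. Summits of 3 to 9 fragments limit what a missing peak can show.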
